A study of Homo sapiens with 8 samples.

Results

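The mTOR pathway genes described here are 10 genes that encode the mTOR kinase, its partner subunits and its nearest regulators, namely MTOR, RPTOR, RICTOR, MLST8, DEPTOR, AKT1S1, RHEB, TSC1, TSC2 and AKT1. Their PML::RARA peaks were taken from the Cut&Run peak list of U937-PR9 cells. U937-PR9 is a monocytic line in which zinc switches on a PML::RARA transgene, and in Cut&Run a nuclease tethered to the antibody cuts out the DNA it sits on. In the list are 15412 peaks that the anti-PML-RARA antibody gave in cells under 100 μM ZnSO4 for 5 h, and 2 replicates stand behind it. The study also has 2 replicates of this antibody in cells given water, and 2 replicates of an anti-RARA antibody in each condition, which were not analysed here. All groups carry the transgene, and zinc and the fusion protein were changed together in induced cells, so their parts in a peak cannot be told apart.

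The peaks were chosen by the gene symbol that the authors gave to peaks with an apex over a promoter, so they were selected on the presence of a called peak. Peaks without a symbol were to be added where their centre lay within 50 kb of such a peak. This gave 5 peaks of the 15412. MTOR, RHEB, AKT1S1, DEPTOR and RICTOR had 1 peak each, while RPTOR, MLST8, TSC1, TSC2 and AKT1 had no peak under their own symbol. Thus 5 of the 10 genes were named in the list, whereas 29.9% of 20149 protein-coding genes were, and nothing is read from this since presence was the rule. No peak without a symbol lay within 50 kb. The closest one outside that limit was 88.0 kb from the MTOR peak, 36 high and 1132 bp wide.

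mTOR is a serine/threonine kinase that works in a pair of complexes. With RPTOR, MLST8, AKT1S1 and DEPTOR it forms mTORC1, which promotes protein synthesis and cell growth and restrains autophagy, and with RICTOR, MLST8 and DEPTOR it is part of mTORC2, which phosphorylates AKT. The small GTPase RHEB switches mTORC1 on at the lysosome, the TSC1-TSC2 complex switches RHEB off, and AKT1 phosphorylates both TSC2 and AKT1S1. Signalling through PI3K, AKT and mTOR is often active in myeloid leukemias.

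The DNA under the apexes at MTOR, RICTOR and RHEB, and at the start site of TSC2, is shown first. Each stretch was read from the plus strand of hg19, 5′ to 3′, within 100 bp of the apex, and was ended where an exon of a protein-coding gene began. Capitals mark matches, on either strand, to the GC box GGGCGG, the ETS core GGAAGT or the E-box CACGTG. No sequence is shown for DEPTOR or AKT1S1.
MTOR, chr1:11322690-11322890: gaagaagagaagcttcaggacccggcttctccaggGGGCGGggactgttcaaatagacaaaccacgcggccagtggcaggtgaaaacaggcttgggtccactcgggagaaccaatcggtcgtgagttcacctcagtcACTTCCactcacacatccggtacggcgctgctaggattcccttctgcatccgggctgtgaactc
RICTOR, chr5:39074550-39074750: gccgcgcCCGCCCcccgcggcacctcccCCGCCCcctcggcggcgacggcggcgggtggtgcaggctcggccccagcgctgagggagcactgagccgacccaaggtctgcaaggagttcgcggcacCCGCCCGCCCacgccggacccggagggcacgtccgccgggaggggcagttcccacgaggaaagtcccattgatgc
RHEB, chr7:151217207-151217373: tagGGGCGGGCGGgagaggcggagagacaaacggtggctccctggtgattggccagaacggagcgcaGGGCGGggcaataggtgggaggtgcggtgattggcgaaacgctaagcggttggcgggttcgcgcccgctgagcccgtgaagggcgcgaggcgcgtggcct
TSC2, chr16:2097868-2097967: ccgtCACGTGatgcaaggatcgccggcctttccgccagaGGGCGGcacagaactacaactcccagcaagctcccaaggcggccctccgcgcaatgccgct

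MTOR (ENSG00000198793, minus strand of chromosome 1 from 11166592 to 11322613, hg19) encodes the kinase itself and had the highest peak of the 10 genes. The peak covered 11321974 to 11323094, and 177 bp separated its apex from the closest start site downstream. Its height, the largest signal within the peak, was 83 in the signal units that the authors deposited. Only 3 of the 15412 peaks were higher, and 3 peaks in all shared the height of 83, so that it ranked 4 by height in the whole list and 3 among the 7169 peaks with a symbol. The width was ordinary by contrast. At 1121 bp it exceeded that of 68.1% of all peaks (rank 4911) and of 50.9% of peaks with a symbol. Its total signal of 22053 ranked 1227. Height was 4.22 times the mean signal per base, above that ratio in 97.0% of peaks with a symbol, where the median was 2.88, so the signal was concentrated at the apex. The other peaks at or above a height of 83, looked up after these values were seen, were both MDC1 peaks, the TCP1 peak and 2 peaks without a symbol on chromosomes 1 and 15, with widths from 1016 to 2881 bp.

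**Figure D1:**
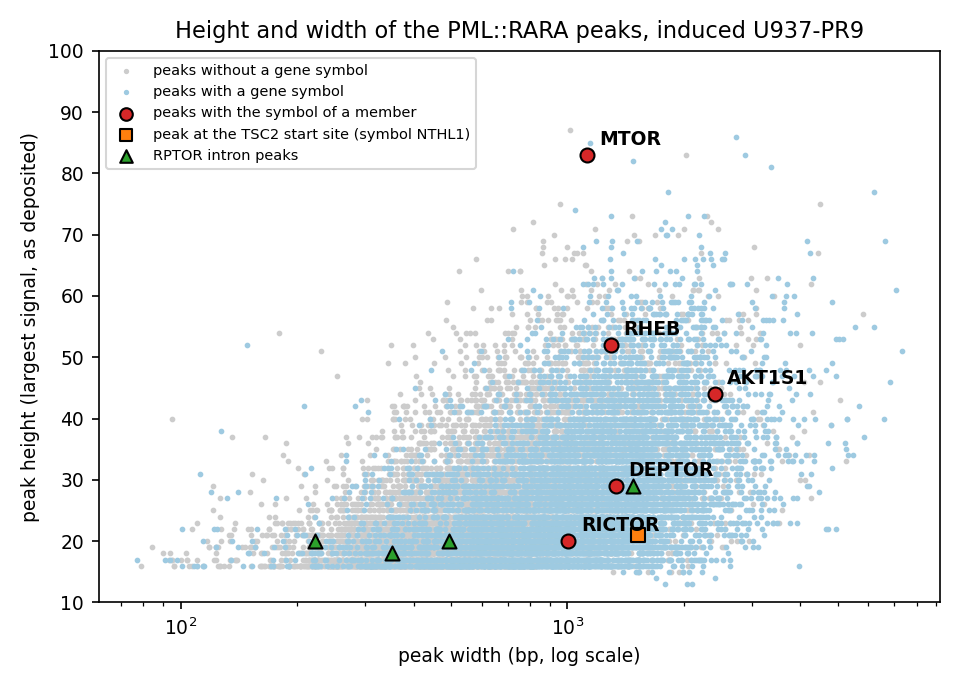
Height (largest signal, as deposited) against width (bp, log scale) of all 15412 PML::RARA peaks in induced cells, with the 5 peaks named for mTOR pathway genes in red, the peak at the TSC2 start site in orange and the 4 RPTOR intron peaks in green. MTOR sits at the top of the list at ordinary width, and RICTOR lies near its lower edge with a height of 20.

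RHEB (ENSG00000106615, minus strand of chromosome 7 from 151163098 to 151217206), the GTPase that activates mTORC1, had the next highest peak. This peak covered 151216933 to 151218230, and its apex was placed 67 bp ahead of a start site. Its height of 52 was above that of 96.4% of all peaks (rank 498, shared by 53 peaks). The width was 1298 bp (rank 3666, above 76.2%), and the total signal of 23813 was slightly larger than that of MTOR.

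AKT1S1 (ENSG00000204673, minus strand of chromosome 19 from 50372290 to 50381716) encodes PRAS40, a subunit that inhibits mTORC1 until AKT phosphorylates it. Its peak, from 50379231 to 50381634, was the widest of the 5 at 2404 bp, above 96.6% of all peaks (rank 518). With a height of 44 (rank 1234, above 91.0%) it also had the largest total signal of the 5, 38515, which ranked 222. The apex lay 59 bp upstream of the closest AKT1S1 start site, but within the annotated gene. The peak also spanned a start site of TBC1D17. The canonical start site of TBC1D17, on the opposite strand, lies 347 bp from that of AKT1S1, and TBC1D17 is named by 0 peaks in the list. This signal therefore cannot be assigned to AKT1S1 alone.

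DEPTOR (ENSG00000155792, plus strand of chromosome 8 from 120885957 to 121063157) encodes a subunit that inhibits both complexes. The DEPTOR peak lay from 120885764 to 120887095. It was the only one of the 5 with its apex downstream of the closest start site of its gene. The distance was 31 bp, and the apex fell in the UTR of exon 1. Its height of 29 exceeded that of 63.2% of all peaks (rank 5211) and its width of 1332 bp that of 77.6% (rank 3441). The total signal was 11318.

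RICTOR (ENSG00000164327, minus strand of chromosome 5 from 38938022 to 39074504), the scaffold of mTORC2, had the lowest peak. Its height of 20 was above that of only 25.5% of all peaks (rank 10691, shared by 797 peaks). The total signal of 7278 was above that of 49.9% (rank 7727). The width of 1005 bp was above 61.8% of all peaks (rank 5886). It spanned 39074366 to 39075370, and the apex lay 146 bp ahead of a RICTOR start site. A start site of the long noncoding gene ENSG00000289196 was closer, at 53 bp.

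The 5 peaks thus ranged from 20 to 83 in height, a span that covers most of the list, in which heights ran from 13 to 87. Their median height was 44, against 26 for all peaks with a symbol and 25 for all peaks, and their median width was 1298 bp, against 1108 bp and 829.5 bp. Order by height and order by width differed, since MTOR was the highest and only the fourth widest. There is 1 value per peak and no value per replicate, so no error can be attached to these differences, and heights that lie as close as 20 and 21 are not separated here.

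In position the 5 peaks resembled the other promoter peaks. The apexes lay 31 to 177 bp from a start site of their own gene, and 68.6% of the 6982 peaks whose symbol occurs in the GENCODE annotation lay within 177 bp as well. Of the 5 apexes, 4 were upstream of the closest start site of their gene, as were 75.4% of all. The surroundings were more varied. The nearest other peak was 40.6 kb away at DEPTOR, 86.3 kb at RHEB and 135 kb at RICTOR, where the median over all peaks with a symbol was 20.4 kb. At MTOR and AKT1S1 it was closer than that median. The RICTOR peak stood farther from any other peak than 88.0% of them.

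**Figure D2:**
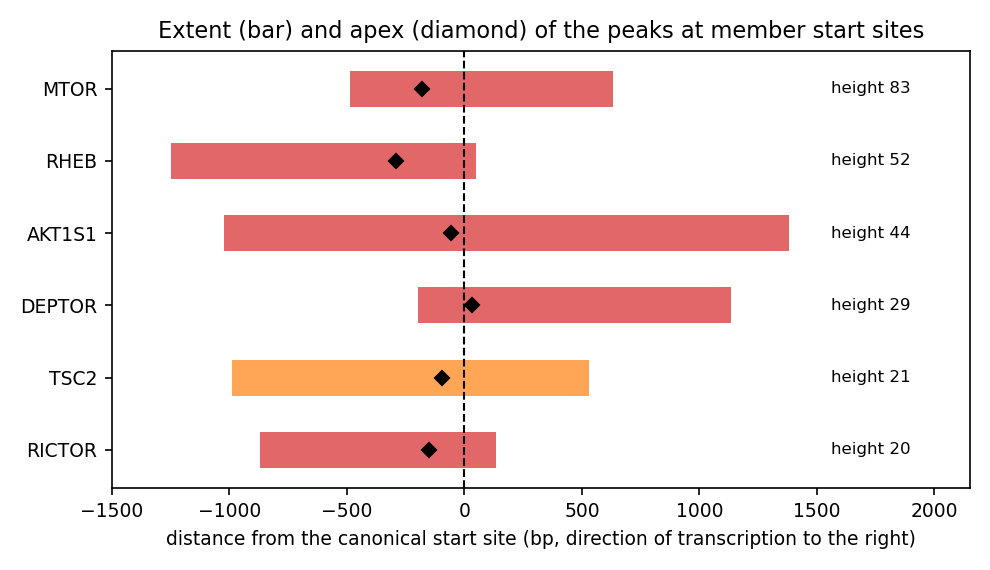
Extent (bar) and apex (diamond) of the peaks at the start sites of 6 mTOR pathway genes, in bp from the canonical start site with transcription running to the right; the TSC2 peak (orange) carries the symbol NTHL1. The DEPTOR apex alone lies past the canonical start site, and the AKT1S1 peak is the longest, at 2404 bp.

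The sequences under the apexes differed in composition. Within 100 bp of the apex, GC content was 77.1% at RICTOR, above that of 94.4% of peaks with a symbol, and 66.2% at RHEB and 63.2% at DEPTOR. It was 57.7% at MTOR and 57.2% at AKT1S1, lower than at most promoter peaks, whose median was 64.7%. The number of CpG dinucleotides followed the same order, from 26 at RICTOR to 11 at both MTOR and AKT1S1, with a median of 17 for peaks with a symbol. The highest and the lowest peak of the 5 thus lay on sequence of low and of high GC content, respectively.

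The GC box GGGCGG, the site of SP1-type factors, occurred at MTOR (1 match), RICTOR (4, some overlapping) and RHEB (3), or 3 of the 5 peaks, and in 61.9% of the 7169 peaks with a symbol. The ETS core GGAAGT, which PU.1 and other ETS factors share, was found at MTOR, RHEB and AKT1S1, also 3 of 5, and in 25.5% of peaks with a symbol. It was closest to the apex at AKT1S1, 17.5 bp away, and lay 39.5 bp away at MTOR. The RHEB match, 76.5 bp from the apex, falls beyond the stretch shown. None of the 5 windows held the retinoic acid receptor hexamer AGGTCA, which 9.29% of peaks with a symbol held. A direct repeat of such hexamers (AGGTCA, or with G for the leading A, T for the G before TCA, or both) with 1 to 5 bases between was absent too, as it was from all but 0.418%. Neither the E-box CACGTG, in 7.52% of peaks with a symbol, nor the AP-1 site TGANTCA, in 4.73%, occurred in the 5 windows. All motifs were searched on both strands, and a match or its absence describes only these letters in this window.

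TSC2 (ENSG00000103197, plus strand of chromosome 16 from 2097968 to 2139492), whose product turns RHEB off, had no peak under its symbol, but a peak covered its start site. This peak, from 2096995 to 2098514, carried the symbol of NTHL1, a DNA repair glycosylase on the opposite strand whose canonical start site is 151 bp from that of TSC2. The apex was 25 bp from an NTHL1 start site and 76 bp upstream of a TSC2 start site. The height was 21, above 30.6% of all peaks (rank 9879), and the width 1520 bp, above 84.0% (rank 2466). Its mean signal per base of 5.06 was among the lowest in the list (above 2.19% of peaks), although the height was 4.15 times that mean, a ratio close to the 4.22 at MTOR. The window around this apex held an E-box CACGTG 17.5 bp from it, a GC box at the same distance to the other side, and an ETS core beyond the stretch shown.

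When any peak with an apex within 1 kb of a start site was counted, whatever its symbol, 6 of the 10 genes had a peak, TSC2 in addition to the 5 named above. Of the protein-coding genes, 39.2% did by this count. The remaining 4 genes, RPTOR, MLST8, TSC1 and AKT1, had none.

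RPTOR (ENSG00000141564, plus strand of chromosome 17 from 78518619 to 78940171) encodes the scaffold that brings substrates to mTORC1. It had no peak at its canonical start site, from which the nearest apex lay 87.1 kb away. From the closest of its 12 start sites the nearest apex was 29.6 kb away. However, 4 peaks without a symbol lay inside the gene. They lay from 78830322 to 78867156, starting 312 kb into this gene of 422 kb, and had their apexes in introns 12, 13, 18 and 19 of the canonical transcript. The intron 18 peak (78865012 to 78866489) was the largest, 29 high and 1478 bp wide, above 63.2% and 82.6% of all peaks. It was followed after 174 bp by the intron 19 peak (78866664 to 78867156, height 20, width 493 bp). The intron 12 peak (78830322 to 78830543) was 20 high and 222 bp wide. That of intron 13 (78845115 to 78845466) was 18 high and 352 bp wide, so both were small for the list. Peaks without a symbol had a median height of 23 and a median width of 634 bp.

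MLST8 (ENSG00000167965, plus strand of chromosome 16 from 2254249 to 2259454), a subunit of both complexes, lies among promoters with peaks but had none itself. The closest apex was 7.11 kb from any MLST8 start site and 9.48 kb from the canonical one, in the PGP peak of height 32. AKT1 (ENSG00000142208, minus strand of chromosome 14 from 105235686 to 105262088), the kinase upstream of TSC2, had its closest apex in the SIVA1 peak of height 49. This apex was 42.8 kb from the canonical start site, a larger distance than for 59.5% of 19812 protein-coding genes, and 21.2 kb from any AKT1 start site. For TSC1 (ENSG00000165699, minus strand of chromosome 9 from 135766735 to 135822261), the partner of TSC2, the closest apex was 86.0 kb from the canonical start site, more than for 69.8% of these genes. From any TSC1 start site the distance was 83.8 kb. There was no peak over MLST8, TSC1 or AKT1. A peak below the threshold of the authors would not be listed, so these genes are without a called peak, and whether PML::RARA was absent from them was not tested.

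**Figure D3:**
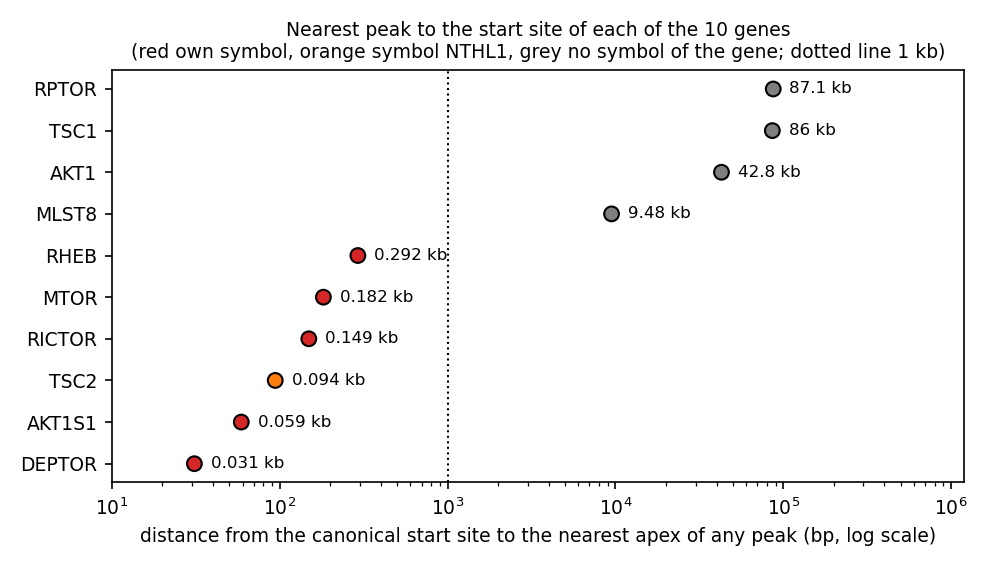
Distance from the canonical start site of each of the 10 genes to the nearest apex of any PML::RARA peak (bp, log scale). Points fall into 6 genes at 31 to 292 bp and 4 genes at 9.48 to 87.1 kb, with none between.

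By complex, peaks at start sites were listed for the kinase and both inhibitory subunits, DEPTOR and AKT1S1, but not for MLST8. Of the scaffolds, RICTOR of mTORC2 had a promoter peak of low height and RPTOR of mTORC1 only intronic peaks. Of the TSC pair, 1 of 2 had a peak at its start.

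The wider pathway was described with 102 other genes in 5 branches. Of these, 67 were named by at least 1 peak, or 65.7% (Wilson 95% interval 56.1 to 74.2%, counting error only), where the share of all protein-coding genes was 29.9%. Counted by an apex within 1 kb of a start site it was 81 genes, or 79.4% (70.6 to 86.1%), where all protein-coding genes gave 39.2%. The list was chosen with earlier results of these data known, and how much of this share goes with the expression of these genes was not tested. The 76 peaks of the 67 genes had a median height of 30 and a median width of 1334.5 bp, beside medians of 44 and 1298 bp for the 5 peaks above, of which RICTOR and DEPTOR lay below 30. None of the 76 reached the height of MTOR, and the highest, at TFEB, was 56.

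Of the other mTORC1 and mTORC2 partners, 4 of 8 were named. TTI2, which helps to assemble the kinase, had the highest peak of this branch (height 43), and PRR5, an mTORC2 subunit, the widest (height 26, 1157 bp). MAPKAP1, PRR5L, TELO2 and TTI1 were not named. At PRR5L a peak without a symbol (height 17) had its apex 50 bp from a start site.

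In the PI3K and AKT arm, 14 of 23 genes were named. INPPL1, the lipid phosphatase SHIP2, had both the highest and the widest peak, at 50 and 3256 bp, above 95.4% and 99.0% of all peaks (chromosome 11, 71933825 to 71937080). Those not named included PIK3CA, PIK3CB, PIK3CG, INPP4B, PHLPP2, IRS1 and GRB10. Peaks without a symbol lay at the starts of PIK3CA and PIK3CB, both of height 18, and INPP4B, of height 22. AKT2, a paralog of AKT1 picked out after its values were seen, was named by a peak 39 high (chromosome 19, 40790833 to 40791788), while AKT1 had none within 1 kb of a start site.

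Energy and stress inputs had the largest share of named genes, 12 of 16, with a median peak height of 34, although the interval of that share (50.5 to 89.8%) overlapped that of each other branch. CAB39L, a scaffold of the LKB1 kinase complex, had the highest peak, 52, and SESN1, a stress-induced inhibitor of mTORC1, the widest of those named for a gene of the branch, 1940 bp at a height of 51. The kinase LKB1 itself (STK11, chosen after its values were seen) had a height of 50, above 95.4% of all peaks. PRKAA2, STRADB, DDIT4 and DDIT4L were not named. DDIT4, which inhibits mTORC1 through the TSC complex, nevertheless had a wider peak, without a symbol, at its start, 39 high and 2285 bp wide (chromosome 10, 74032415 to 74034699), and the STRADB start lay in a peak of height 39 named for TRAK2.

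Of the genes for amino acid sensing at the lysosome, 20 of 28 were named. LAMTOR4, a subunit of the Ragulator complex, had the highest peak (46), and the RAG GTPase RRAGD the widest (1960 bp), at a height of only 18. The other RAG genes, RRAGA, RRAGB and RRAGC, given for comparison after their values were seen, had heights of 19, 24 and 23, so that all 4 RAG genes had a peak below the median height of 26. Those not named included LAMTOR2, MIOS, WDR24, CASTOR2, SAMTOR, FLCN and FNIP2. SAMTOR occurs in the list under its older symbol BMT2. The peak at the start of LAMTOR2 (height 42) was named for UBQLN4, and that at FNIP2 (16) for no gene.

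Among the outputs of the pathway, 17 of 27 genes were named. TFEB, a transcription factor for lysosome and autophagy genes that mTORC1 keeps in the cytoplasm, had 3 peaks, more than any other of the 102 genes. The peaks lay on chromosome 6 from 41673600 to 41676016, from 41690703 to 41692229 and from 41701348 to 41703537. Their heights were 33, 56 and 20 and their widths 2417, 1527 and 2190 bp, so that TFEB had both the highest and the widest of the peaks named for genes of the branch. RPS6KB1, EEF2, PDCD4, ULK2, ATG13, MITF, SGK2, SGK3, PRKCA and MAF1 were not named. At RPS6KB1, which encodes the S6 kinase, a peak of height 45 with its apex 22 bp from a start site carried the symbol TUBD1. That at MAF1, an RNA polymerase III repressor, exceeded those of TFEB in both respects, with a height of 62 and 2671 bp in width, and was named for SHARPIN. Peaks at ATG13 (height 16) and PDCD4 (23) were named for HARBI1 and PDCD4-AS1. In all, 14 of the 35 genes that were not named had an apex within 1 kb of a start site, in 8 cases under another symbol and in 6 under none. SAMTOR has no start site under that symbol in the annotation, so it was counted among the genes without such an apex, and its start was not examined. With older symbols too, 68 of the 102 genes were named.

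**Figure D4:**
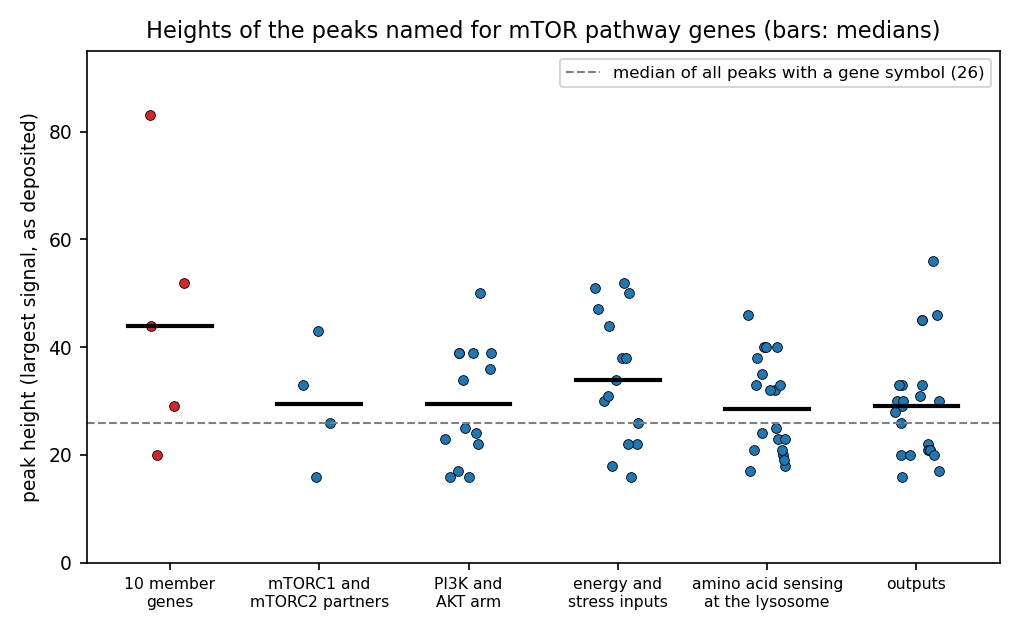
Heights (largest signal, as deposited) of the peaks named for the 10 member genes (red) and for the genes of 5 further branches of the pathway (blue), each point a peak and each bar a median; the dashed line is the median of all peaks with a symbol, 26. MTOR at 83 stands above all 76 peaks of the other branches, which end at 56.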

How the data were processed

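Cut&Run libraries of induced U937-PR9 cells with the anti-PML-RARA antibody were processed by the authors with Trimmomatic, Bowtie2 (hg19), SAMtools, Bedtools and SEACR against the paired control, and peaks reproducible between 2 replicates at an IDR below 0.05 were kept. Versions are not given in the sources used here. The authors deposited, per peak, the largest signal and a total signal, which in all 15412 peaks was below height times width; how these signals were scaled, and over which replicates, is not stated. Depth is unknown. Wider and deeper regions gain total signal, so height, width and total were ranked separately.

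Percentiles are shares of peaks with a lower value. Apexes are midpoints of the interval of largest signal (its start in the 34 peaks without an end). Genes and start sites came from GENCODE release 44 on GRCh37, the build of the list, and older symbols from RefSeq (GRCh38.p14, names only). Matches were searched in windows of 201 bp. Functions were tested on simulated data. No test was run, since the list has 1 set of values. The members and lists were chosen with earlier results of these data known. Named were all 10 genes, every peak at them, and per branch the highest, the widest and the genes not named; a few genes and sequences are not reported here. Python 3.11.15, numpy 2.4.6, pandas 2.3.3, scipy 1.17.1, pysam 0.24.0 and matplotlib 3.10.9 were used.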

Additional observations from a re-analysis of the deposited data

How the results depend on the processing

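No paired analysis was possible because each peak has a single set of values, and none could be recomputed without a replicate. Of 25 alternatives, 15 moved no value by more than the set margin (a factor of 1.5 for a count). The median height percentile of the 5 named peaks, 91.0%, was 92.0% by total signal, 94.7% by total signal divided by width, 89.6% among peaks with a symbol and 73.0% among peaks of like width. The median width percentile, 76.2%, was 62.1% among peaks with a symbol and 72.1% with neighbours under 1 kb merged. With the TSC2 peak added, chosen after seeing the data, they were 77.1% and 76.9%. Of the 102 pathway genes, 43 rather than 67 were named at or above the median height, a threshold that shortens the list. Windows that reached 200 bp to either side of the apex held a CACGTG in 1 of the 5 peaks rather than 0. The cause of the other shifts was not tested.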

Other observations

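Some of the 10 genes lie among other promoters with peaks, and others stand far from any. Within 50 kb of the AKT1S1 start site lay 5 peaks in all, of which the IL4I1 peak (chromosome 19, 50399951 to 50401333), named for an amino acid oxidase of immune cells, was the highest at 49. Around MLST8, which had no peak, 4 peaks were listed within 50 kb, named for SNORD60, PGP, E4F1 and ECI1, with heights of 34, 32, 39 and 24. Around TSC1 and the canonical RPTOR start there were 0 within 50 kb. These neighbours were looked up after the values of the 10 genes were seen.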
